A study of Mus musculus with 9 samples.

Results

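Tumors classed as responsive to an antibody against PD-1 were compared with tumors of mice that received phosphate-buffered saline (PBS), by RNA sequencing of bulk tumor tissue. The data are 6 of the 9 tumors of the series, each from 1 mouse: 3 anti-PD-1 antibody-responsive tumors and 3 PBS tumors, with the 3 anti-PD-1 antibody-nonresponsive tumors used for reference. All mice were male C57BL/6 mice aged 6 to 8 weeks that carried Hepa1-6 tumors, a line derived from a mouse hepatoma, and each tumor grew from a piece of subcutaneous tumor placed in the left lobe of the liver. PBS or the antibody (clone RMP1-14) was given into the peritoneal cavity 5 times, 4 days apart, starting on day 10 and ending on day 26. Collection followed on day 27, after liver tissue around the tumor was trimmed off. The study took the 3 smallest antibody-treated tumors as responsive and left tumors of intermediate size out, so that response and small size cannot be told apart. Of 48254 loci listed, 12715 reached an FPKM (mapped fragments scaled to transcript length and library size) of at least 1 in 3 or more of the 6 tumors and were compared. A locus is a gene, or several genes that share an entry in any tumor's table, whose values were summed.

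PD-1 is a receptor on activated T cells that dampens their activity when bound by its ligand PD-L1, and antibodies to it release that brake. Hepatocytes, the main cells of the liver, make most plasma proteins, clear ammonia as urea, oxidise and build fatty acids, make bile acids and metabolise drugs through cytochrome P450 enzymes. Hepatoma cells keep part of this program and lose much of it as they divide.

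Most genes of hepatocyte function, 229 of 288 loci, were higher in the responsive than in the PBS tumors. Smaller parts of other lists passed the test, with 7 of 32 B cell loci higher, and 13 of 30 mitosis loci and 7 of 22 matrix remodeling loci lower. The mitosis count was 1 without PBS tumor 1, 1 with an ordinary Student test, 1 with a replicate block and 0 in a fit of all 9 tumors, and the B cell count was 1 without responsive tumor 1. With limma on log2(FPKM + 1), 2434 of the 12715 loci (19.1%) had an unadjusted p under 0.05, 1159 of them (9.12%) higher and 1275 (10%) lower in responsive tumors. In what follows a locus is called higher or lower on this unadjusted threshold. After Benjamini-Hochberg adjustment over all loci, 19 loci (0.149%) had an adjusted p under 0.05, and each of them was listed at 0 in all tumors of 1 group. Among the 11835 loci above 0 in all 6 tumors the smallest adjusted p was 0.0909, so every gene of the pathways described here that was above 0 throughout missed the adjusted threshold. All responsive tumors lay above all PBS tumors at 1497 loci (11.8%) and below them at 2161 loci (17.0%). Changes of at least 4-fold among called loci were found at 324 higher and 42 lower loci. The median log2 fold change over all loci was -0.11, and it was -0.25 when the named loci of each tumor were rescaled to the same sum, a scaling under which 27.9% of the called loci were higher instead of 47.6%.

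These counts changed when single tumors were left out. PBS tumor 1 had the lowest share of hepatocyte genes and stood apart, with correlations to the other 8 tumors of 0.655 to 0.904 across genes, and responsive tumor 1 had the highest share. Without PBS tumor 1 the count of called loci was 1230, without PBS tumor 2 it was 2379 and without PBS tumor 3 it was 1609. Without responsive tumor 1 it was 1097, without responsive tumor 3 it was 1273 and without responsive tumor 2 it was 4080. A fit with 1 tumor fewer also has less power, and the part of this in the lower counts was not tested. The number of fragments per tumor is not in the files. Depth relative to PBS tumor 1 was read from the commonest ratio of single-gene values, with only ratios near 1 kept. It ranged from 0.936 to 1.07 over all tumors of the series. Since other ratios were dropped, this reading cannot show that depth was even. The confidence bounds of the deposited values lay a median of 24.6% from the value at 1 to 10 FPKM and 9.76% at 10 to 100 FPKM. Entries without a gene name, which were left out, held 19.2% to 81.5% of the summed FPKM of the PBS tumors and 21.0% to 55.1% of that of the responsive tumors. With 3 tumors against 3, an exact permutation test of a single value cannot give a p below 0.1. In bulk tissue, fewer cells of a type and less RNA per cell cannot be told apart.

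**Figure D1:**
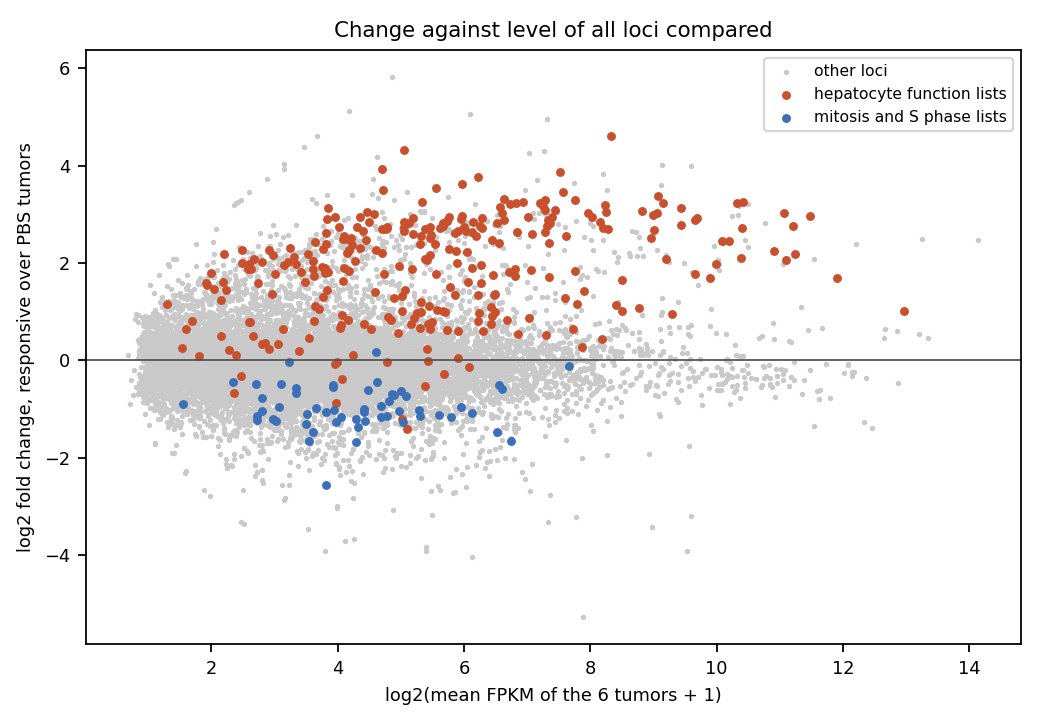
Log2 fold change of responsive over PBS tumors (vertical axis) against log2(mean FPKM of the 6 tumors + 1) (horizontal axis), 1 point per locus compared. The loci of the hepatocyte function lists lie mostly above 0 over the whole range of levels, while those of the mitosis and S phase lists lie mostly below 0.

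The 15 lists of hepatocyte function held 288 loci, of which 229 were higher (79.5%, against 9.12% of all loci) and 1 was lower. Their median log2 fold change was 2.02, against -0.11 over all loci. At 229 of them every responsive tumor lay above every PBS tumor, which held at 11.8% of all loci. The summed FPKM of these lists was 1.48%, 4.46% and 5.80% of the named FPKM in PBS tumors 1, 2 and 3, and 16.5%, 8.62% and 10.2% in responsive tumors 1, 2 and 3. The lowest responsive tumor stood above the highest PBS tumor, and PBS tumor 1 and responsive tumor 1 were the extremes. The count of higher loci was 102 without responsive tumor 1, with a median of 1.76, 138 without responsive tumor 3, with a median of 2.06, and 203 without PBS tumor 1, with a median of 1.35. It was 109 with an ordinary Student test and 161 with a replicate block. Against the nonresponsive tumors, whose summed share was 12.7%, 6.19% and 4.29%, 109 of the 288 loci were higher and 0 were lower in the responsive tumors (4.36% of 12716 loci were higher in that comparison), with a median difference of 1.02. The nonresponsive tumors 2 and 3 carried markers of other tissues, Prss2 of the pancreas at 255 FPKM in tumor 2 and Ckm of skeletal muscle at 54.8 FPKM in tumor 3, and the part of this in the comparison with them was not tested. Markers that define hepatocytes were present in all 9 tumors, and how much of this RNA came from hepatocytes and how much from hepatoma cells was not tested.

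Promoters of 2 hepatocyte genes that lay far above their PBS level are printed to show letters found in part of this class of gene. Each runs from 250 bases before to 50 bases after the start of the gene (RefSeq, GRCm38.p6), and positions are counted from the start as 1. Capitals mark matches, on either strand, to GTTAAT (a core of sites bound by the hepatocyte factor HNF1), TATAAA (the TATA box), TTTGAA (the CHR element of cell cycle genes) and CCAAT (the CCAAT box, which reads ATTGG on the other strand). The promoter of Alb, the gene of serum albumin, lies at chr5:90460620-90460919 on the plus strand and holds GTTAAT at -32 and CCAAT at -56 and, on the other strand, at -15. That of Fabp1, the liver fatty acid binding protein, lies at chr6:71199629-71199928 on the plus strand and holds GTTAAT at -107 and TATAAA at -30.
Alb: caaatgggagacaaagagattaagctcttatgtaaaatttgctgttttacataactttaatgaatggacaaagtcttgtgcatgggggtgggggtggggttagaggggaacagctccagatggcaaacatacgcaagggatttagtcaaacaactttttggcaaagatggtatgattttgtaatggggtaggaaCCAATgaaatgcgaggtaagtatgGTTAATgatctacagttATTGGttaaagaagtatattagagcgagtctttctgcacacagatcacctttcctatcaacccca
Fabp1: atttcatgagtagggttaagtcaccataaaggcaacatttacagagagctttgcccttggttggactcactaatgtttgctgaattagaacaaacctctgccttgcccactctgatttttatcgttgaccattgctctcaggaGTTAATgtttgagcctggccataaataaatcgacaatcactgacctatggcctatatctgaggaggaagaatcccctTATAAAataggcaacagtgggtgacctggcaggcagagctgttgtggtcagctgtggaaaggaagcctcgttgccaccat
GTTAAT was found in 47 of 281 promoters of the hepatocyte function genes compared (16.7%), in 4.97% of the promoters of all genes compared and in 7.10% of all 32851 promoters. TATAAA was found in 19.2%, 8.56% and 13.6% of the same sets. These matches describe letters in the window, and binding was not measured.

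Secreted plasma proteins made by hepatocytes were higher across their lists. Of the plasma carrier proteins 16 of 18 loci were higher and 0 lower (median 2.54), of the apolipoproteins 12 of 13 (median 2.72), of the coagulation factors 16 of 17 (median 2.56) and of the complement components 15 of 19 (median 2.17), again with 0 lower. Alb was at 173, 835 and 1259 FPKM in PBS tumors 1, 2 and 3, the order used from here on, and at 5041, 2576 and 4396 FPKM in responsive tumors 1, 2 and 3. The lowest responsive tumor was above the highest PBS tumor, with a log2 fold change of 2.76 ± 0.78 (SE) and an unadjusted p of 0.0126 (adjusted p 0.246). Alb was also higher than in the nonresponsive tumors, which were at 2678, 1490.0 and 885 FPKM (difference 1.34, unadjusted p 0.0401). Apob, the core protein of very low density lipoprotein, was at 6.93, 37.8 and 87 FPKM in PBS and 377, 177 and 243 FPKM in responsive tumors, with a log2 fold change of 3.08 ± 0.88 (unadjusted p 0.0131). Again no responsive tumor reached down into the PBS range. The locus of the alpha-1 antitrypsin genes Serpina1a to Serpina1e and their neighbours, the main protease inhibitors of plasma, was at 162, 1020.0 and 1267 FPKM in PBS and 7229, 3172 and 4357 FPKM in responsive tumors (log2 fold change 2.96 ± 0.85). Reads are shared among such near-identical copies, so the value is that of the family. C8b, a subunit of the membrane attack complex, was at 1.69, 10.3 and 15.6 FPKM in PBS and 78.3, 34.7 and 51.2 FPKM in responsive tumors, a log2 fold change of 2.73 ± 0.72. Transthyretin (Ttr), a carrier of thyroid hormone, was at 18.5, 200.3 and 210.1 FPKM in PBS and 1656, 540.0 and 774 FPKM in responsive tumors (log2 fold change 3.24 ± 1.02, unadjusted p 0.0193). For Ttr this p was 0.061 without responsive tumor 1. The fibrinogen chain Fgb was at 17.9, 107 and 303 FPKM in PBS and 1145, 470.0 and 674 FPKM in responsive tumors (log2 fold change 3.07 ± 1.01, unadjusted p 0.0235). For Fgb this p was 0.0704 without responsive tumor 1 and 0.0551 without responsive tumor 3. In each of these genes PBS tumor 1 was the lowest and responsive tumor 1 the highest of the 6.

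The acute phase proteins, which hepatocytes and some other cells secrete in inflammation, had fewer calls. Of 13 loci 5 were higher and 0 lower, although the median was 1.99. Hp, haptoglobin, which binds free hemoglobin, was at 145, 1309 and 2127 FPKM in PBS and 5459, 1934 and 3631 FPKM in responsive tumors (unadjusted p 0.0851). The locus of Crp, C-reactive protein, joined with 9430083B18Rik, was called higher, with a log2 fold change of 2.40 ± 0.90 (unadjusted p 0.038). For Crp this p was up to 0.105 without PBS tumor 2 or responsive tumors 1 or 3. The locus of serum amyloid A genes Saa1 and Saa3 was at 283, 3552 and 3164 FPKM in PBS and 9004, 2859 and 4099.9 FPKM in responsive tumors (unadjusted p 0.171). For Hp and the Saa locus responsive tumor 2 lay inside the PBS range. C3, the central complement protein, was at 92.5, 601 and 603 FPKM in PBS and 1679, 670.1 and 1180.2 FPKM in responsive tumors and missed the threshold as well (unadjusted p 0.0748), without overlap of the groups.

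Enzymes of drug and hormone metabolism were higher almost throughout. Of the cytochrome P450 enzymes 22 of 23 loci were higher and 0 lower, with a median of 2.62, and 17 of them were also higher than in the nonresponsive tumors. Cyp2f2, a P450 of the periportal liver and the airway, was at 0.376, 2.49 and 3.99 FPKM in PBS and 28, 27 and 18.9 FPKM in responsive tumors. The separation was wide relative to the spread within each group (log2 fold change 3.13 ± 0.49, unadjusted p 0.000728, adjusted p 0.243), and the nonresponsive tumors, at 11.3, 2.61 and 4.87 FPKM, stood below the responsive ones (difference 1.98, unadjusted p 0.00475). Cyp2e1, which oxidises ethanol and small drugs around the central vein, was at 23.7, 319 and 273 FPKM in PBS and 1673, 833 and 1039 FPKM in responsive tumors (log2 fold change 3.13 ± 1.02, unadjusted p 0.0222). For Cyp2e1 this p was 0.0655 without responsive tumor 1 and 0.0517 without responsive tumor 3. The joined Cyp2c37 and Cyp2c50 locus was at 3.21, 33.4 and 30.5 FPKM in PBS and 178, 83.4 and 133 FPKM in responsive tumors (log2 fold change 2.93 ± 0.86). The Cyp3a11 locus, joined with Cyp3a16, Cyp3a41a and Cyp3a41b, was the member that missed the threshold, at 2.75, 44 and 78.3 FPKM in PBS and 329.9, 75.7 and 240.1 FPKM in responsive tumors (unadjusted p 0.0541). Of the phase II enzymes, which conjugate drugs and bilirubin, 20 of 22 loci were higher and 0 lower (median 1.83). Ugt2b1, a glucuronosyltransferase, was at 1.17, 10.2 and 14.1 FPKM in PBS and 87.7, 29.4 and 50.1 FPKM in responsive tumors (log2 fold change 2.85 ± 0.81).

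Genes of nitrogen and amino acid metabolism followed the same pattern. Of 31 loci of the urea cycle and amino acid catabolism 29 were higher and 0 lower, with a median of 2.17. Cps1, which fixes ammonia in the first step of the urea cycle, was at 1.46, 10.6 and 13.7 FPKM in PBS and 103, 32.2 and 43.3 FPKM in responsive tumors (log2 fold change 2.83 ± 0.79, unadjusted p 0.0114). Otc, which catalyses the next step, was at 0.586, 4.89 and 9.26 FPKM in PBS and 72.3, 20.4 and 30.2 FPKM in responsive tumors (log2 fold change 3.00 ± 0.79). Both genes were lowest in PBS tumor 1 and highest in responsive tumor 1, without overlap. Arg1, the last enzyme of the cycle, which is also made by macrophages, did not follow: it was at 68.9, 249 and 348 FPKM in PBS and 407, 150.0 and 177 FPKM in responsive tumors, and the groups overlapped (log2 fold change 0.28 ± 0.70, unadjusted p 0.701). Gnmt, which consumes methyl groups by methylating glycine, was at 2.89, 28.5 and 39 FPKM in PBS and 258, 133 and 128 FPKM in responsive tumors (log2 fold change 3.31 ± 0.91, unadjusted p 0.0111). Glul, glutamine synthetase of the hepatocytes around the central vein and a target of Wnt signaling, was at 76.7, 159 and 109 FPKM in PBS and 299, 229 and 279.8 FPKM in responsive tumors in a locus joined with Mir8114 (log2 fold change 1.28 ± 0.30, unadjusted p 0.00541). Its groups did not overlap, and it was higher than in the nonresponsive tumors too (difference 1.04, unadjusted p 0.0216).

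Bile acid, glucose and fatty acid metabolism were higher to different degrees. All 17 loci of bile acid transport and conjugation were higher, with a median of 2.30. Slco1a1, an uptake transporter of the hepatocyte's blood-facing membrane, was at 0.405, 4.05 and 3.8 FPKM in PBS and 42.1, 14.9 and 21.6 FPKM in responsive tumors (log2 fold change 2.94 ± 0.62, unadjusted p 0.00312). Fabp1, whose promoter is printed above, was at 13.7, 195 and 225 FPKM in PBS and 1289.7, 691 and 801 FPKM in responsive tumors (log2 fold change 3.37 ± 1.08, unadjusted p 0.021). For Fabp1 this p was 0.0615 without responsive tumor 1. Neither gene overlapped between the groups. Slc10a1, the bile acid importer NTCP, was listed at 1.35, 0 and 9.54 FPKM in the PBS tumors and at 69.5, 30.1 and 39.4 FPKM in the responsive tumors. Of the liver glucose genes 13 of 15 were higher and 0 lower (median 2.02). G6pc, the enzyme that releases free glucose, was at 0.210, 3.01 and 4.33 FPKM in PBS and 41.5, 16.8 and 13.4 FPKM in responsive tumors (log2 fold change 2.91 ± 0.68, unadjusted p 0.00518), above the nonresponsive tumors at 6.18, 4.59 and 1.26 FPKM (difference 2.30, unadjusted p 0.00678). Sord, which oxidises sorbitol to fructose, was at 7.8, 52.3 and 54.6 FPKM in PBS and 243, 142 and 181 FPKM in responsive tumors (log2 fold change 2.64 ± 0.75, unadjusted p 0.0127).

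Fatty acid oxidation had 25 of 27 loci higher and 0 lower with a smaller median of 1.02. Acaa2, a mitochondrial thiolase, was at 25.4, 58.8 and 61.6 FPKM in PBS and 225, 134 and 159.8 FPKM in responsive tumors (log2 fold change 1.88 ± 0.40, unadjusted p 0.00334). Fatty acid synthesis had 8 of 19 loci higher and 0 lower (median 0.87). Fasn, the synthase itself, was at 24.6, 24.1 and 25.8 FPKM in PBS and 43.6, 36.8 and 60.8 FPKM in responsive tumors, a tight pair of groups that did not overlap (log2 fold change 0.87 ± 0.21, unadjusted p 0.00664). Elovl3, which lengthens fatty acids and was among the 10 largest increases of loci above 0 in every tumor, was at 0.556, 5.37 and 3.63 FPKM in PBS and 85.4, 32.4 and 15.6 FPKM in responsive tumors (log2 fold change 3.34 ± 0.77, unadjusted p 0.00483). Cholesterol synthesis and uptake had the lowest share of higher loci among the 15 lists, with 5 of 21 higher, 1 lower and a median of 0.62. Ebp, a sterol isomerase of this pathway, was at 32.8, 47.6 and 43.4 FPKM in PBS and 64.3, 67.4 and 57.8 FPKM in responsive tumors (log2 fold change 0.62 ± 0.19, unadjusted p 0.0173). For Ebp this p lay above 0.05 with the named loci rescaled to the same sum and with a replicate block.

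**Figure D2:**
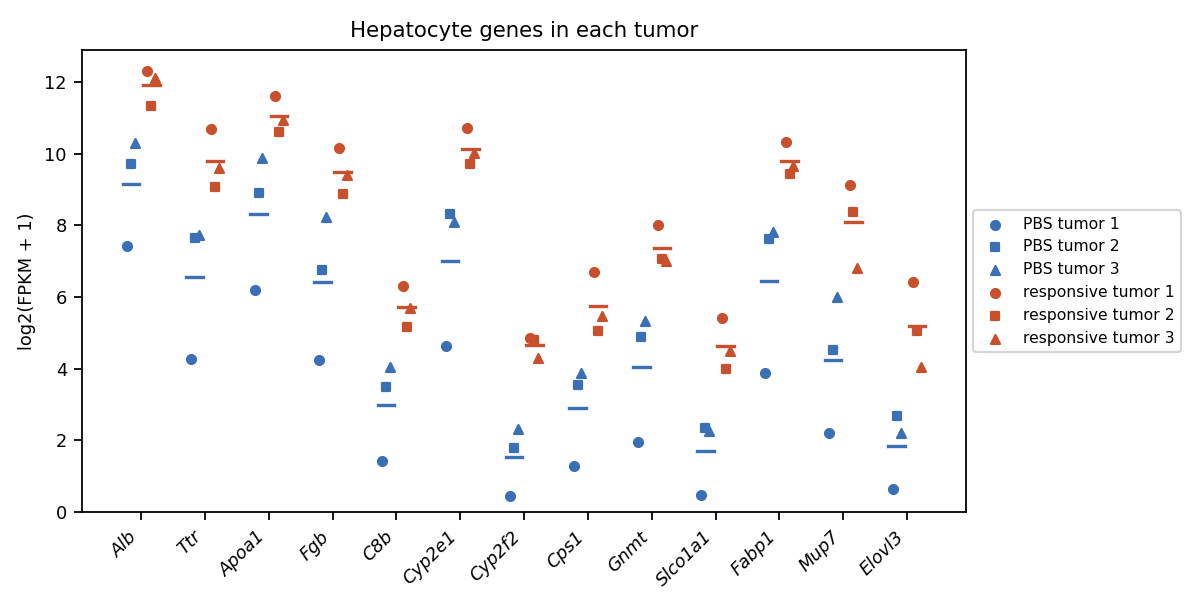
Log2(FPKM + 1) of 13 hepatocyte genes in each PBS tumor (blue) and responsive tumor (red), with tumor 1 as circles, tumor 2 as squares, tumor 3 as triangles and bars at the group means. For every gene drawn the 3 responsive tumors sit above the 3 PBS tumors, and PBS tumor 1 is the lowest point.

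The largest median among the hepatocyte lists, 3.23, was that of the major urinary proteins, small lipocalins that male mouse liver secretes into blood and urine under androgen and growth hormone control. All 17 loci were higher, with log2 fold changes of 2.92 to 3.87. Mup7 was at 3.61, 21.9 and 63.1 FPKM in PBS and 559, 331 and 112 FPKM in responsive tumors (log2 fold change 3.87 ± 1.07, unadjusted p 0.0112). Mup1 was at 1.49, 7.97 and 19.5 FPKM in PBS and 185, 119 and 37.7 FPKM in responsive tumors (log2 fold change 3.63 ± 0.92). In both genes the lowest responsive tumor was tumor 3 and the highest PBS tumor was tumor 3. The Mup genes are near-identical copies, so their reads can be shared or misassigned and these loci are not 17 separate results. Against the nonresponsive tumors 0 of the 17 loci were called higher. Mup7 was at 523, 39 and 47 FPKM in the nonresponsive tumors, of which tumor 1 lay within the range of the responsive tumors. Of the 10 largest increases among called loci above 0 in every tumor with a mean FPKM of at least 5, 6 were Mup genes, and the others were Fabp1, Elovl3, Gnmt and the joined immunoglobulin segments Igkv4-79 and Igkv4-91.

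The transcription factors that specify hepatocytes were higher in part, with 13 of 20 loci higher, 0 lower and a median of 1.25. The higher loci include that of Nr1h3, listed at 0 FPKM in PBS tumors 2 and 3, which may be failed estimates. Onecut1, a factor of hepatocyte differentiation, joined with Gm16551 and Gm20649, was at 0.0537, 1.11 and 1.52 FPKM in PBS and 7.1, 4.4 and 2.54 FPKM in responsive tumors (log2 fold change 1.60 ± 0.45, unadjusted p 0.0122). Mlxipl, which encodes the carbohydrate sensor ChREBP, was at 1.84, 4.74 and 3.72 FPKM in PBS and 13.9, 8.29 and 8.31 FPKM in responsive tumors (log2 fold change 1.36 ± 0.34). Cebpa, a driver of hepatocyte genes, was at 17.3, 31.9 and 46.7 FPKM in PBS and 123, 53.4 and 69.4 FPKM in responsive tumors (log2 fold change 1.35 ± 0.46, unadjusted p 0.0254). For Cebpa this p was up to 0.0697 without PBS tumors 1 or 2 or responsive tumors 1 or 3. Cebpb, which is shared with macrophages, was at 119, 305 and 338 FPKM in PBS and 448, 215 and 324 FPKM in responsive tumors and did not pass (unadjusted p 0.396). The pioneer factor Foxa2 went the other way without passing, at 60.5, 28.3 and 43 FPKM in PBS and 5.59, 50.4 and 11.4 FPKM in responsive tumors (log2 fold change -1.41 ± 0.77, unadjusted p 0.117).

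**Figure D3:**
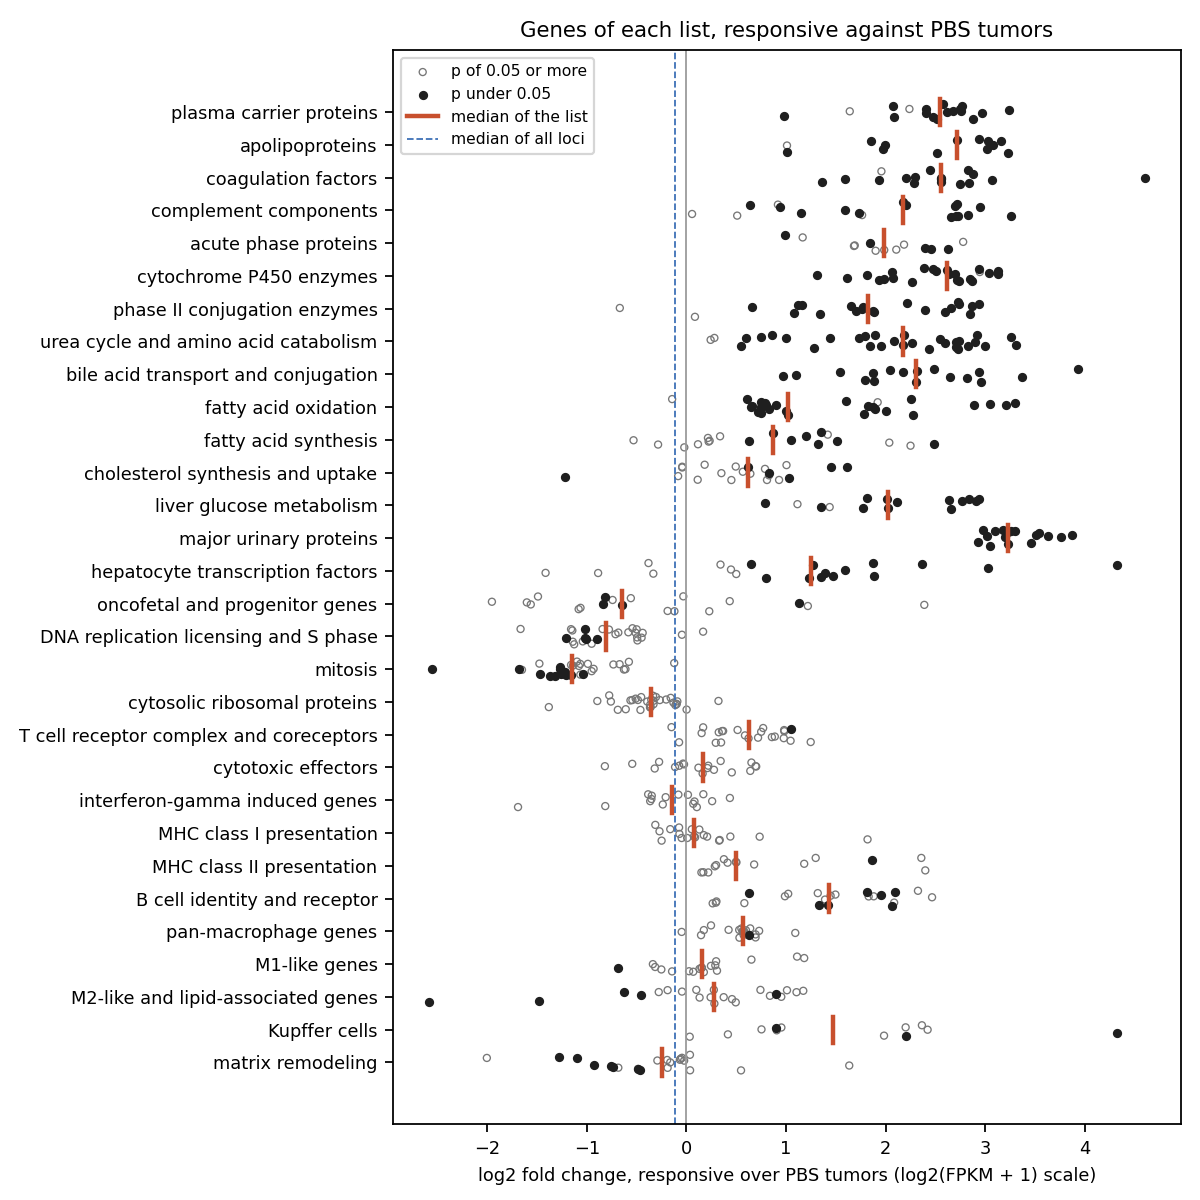
Log2 fold change of responsive over PBS tumors for each locus of 30 gene lists (1 point per locus, filled where the unadjusted p is under 0.05), with the median of the list as a red bar and the median of all loci, -0.11, as a dashed line. The hepatocyte lists at the top stand to the right of 0 with mostly filled points, mitosis stands to the left with 13 filled points of 30, and the interferon-gamma, MHC class I and M1-like lists have medians of -0.14, 0.08 and 0.15 with 0, 0 and 1 filled points.

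Genes of the hepatoma cell and of cell division were lower in part. The 11 lists of tumor cell function held 252 loci, of which 25 were lower (9.92%, against 10% of all loci) and 10 were higher, so that as a whole their share of lower loci was close to the background. In the mitosis list 13 of 30 loci were lower, 0 were higher, all 30 fold changes were below 0 and the median was -1.15. Its summed FPKM was 1436, 783 and 1222 in the PBS tumors and 356, 847 and 639 in the responsive tumors, so that responsive tumor 2 lay above PBS tumor 2. The count of lower loci depended on single tumors. It was 1 without PBS tumor 1, 1 without PBS tumor 3, 3 without responsive tumor 1, 4 without responsive tumor 3, 23 without responsive tumor 2 and 24 without PBS tumor 2, and it was 1 with an ordinary Student test, 1 with a replicate block and 0 in a fit of all 9 tumors. PBS tumor 1 and responsive tumor 1, which had the highest and lowest mitosis sums, had the lowest and highest share of hepatocyte genes, and the part of that share in the mitosis result was not tested. Against the nonresponsive tumors 0 of the 30 loci were lower.

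Kif23, a kinesin of the midbody that is needed for cytokinesis, was the mitosis gene that passed in every fit that left out a tumor. It was at 25, 16.4 and 21.7 FPKM in PBS and 5.32, 10.2 and 9.42 FPKM in responsive tumors. All responsive tumors were below all PBS tumors (log2 fold change -1.26 ± 0.29, unadjusted p 0.00446), while the nonresponsive tumors spanned both groups at 2.38, 14.3 and 26.5 FPKM. Ect2, the exchange factor that starts the cleavage furrow, was at 21.2, 9.67 and 14 FPKM in PBS and 2.28, 8.54 and 6.36 FPKM in responsive tumors (log2 fold change -1.31 ± 0.47, unadjusted p 0.0321). For Ect2 this p was up to 0.0887 without PBS tumors 1 or 3 or responsive tumors 1 or 3. Foxm1, the transcription factor of the mitotic program, in a locus joined with Gm43965, Gm44596, Nrip2 and Tex52, was at 36.5, 16.2 and 31.2 FPKM in PBS and 2.87, 15.3 and 8.95 FPKM in responsive tumors (log2 fold change -1.68 ± 0.59, unadjusted p 0.0287). For Foxm1 this p was up to 0.0793 without PBS tumors 1 or 3 or responsive tumor 3. For both, responsive tumor 2 came close to PBS tumor 2, and responsive tumor 1 was the lowest of the 6. Cdk1, the kinase that drives entry into mitosis, missed the threshold at 201, 92.2 and 166 FPKM in PBS and 15.4, 106 and 57.4 FPKM in responsive tumors (unadjusted p 0.062).

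The promoters of Kif23 (chr9:61946750-61947049, minus strand) and Ect2 (chr3:27153829-27154128, minus strand) are printed on the sense strand of each gene, with the same window and the same marks as above, because CHR elements and CCAAT boxes are known from genes of the mitotic program. Kif23 holds TTTGAA at 3 and CCAAT on the other strand at -7, and Ect2 holds TTTGAA at -114 and 40 and CCAAT at -96, -55 and 2.
Kif23: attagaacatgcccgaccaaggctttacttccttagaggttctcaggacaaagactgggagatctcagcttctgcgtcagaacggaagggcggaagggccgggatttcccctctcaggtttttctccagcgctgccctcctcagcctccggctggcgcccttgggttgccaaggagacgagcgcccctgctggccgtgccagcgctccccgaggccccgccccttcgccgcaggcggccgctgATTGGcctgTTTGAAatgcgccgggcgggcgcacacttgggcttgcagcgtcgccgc
Ect2: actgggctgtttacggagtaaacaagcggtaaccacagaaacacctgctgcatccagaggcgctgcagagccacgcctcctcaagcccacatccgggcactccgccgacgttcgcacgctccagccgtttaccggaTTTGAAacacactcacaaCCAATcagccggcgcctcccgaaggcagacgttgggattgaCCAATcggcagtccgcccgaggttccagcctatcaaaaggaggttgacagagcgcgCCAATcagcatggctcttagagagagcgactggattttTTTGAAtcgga
TTTGAA was found in 21 of 27 promoters of the mitosis genes compared (77.8%), against 12.9% of the promoters of all genes compared, and CCAAT in 77.8% against 37.7%. A match is a description of the letters and not a site in use.

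DNA replication licensing and S phase had 5 of 26 loci lower (Cdc6, Fen1, Gins1, Orc1 and Rrm1, the last joined with Gm45399) and 0 higher, with a median of -0.81. Orc1, the largest subunit of the origin recognition complex, was at 3.02, 1.93 and 3.44 FPKM in PBS and 0.637, 1.28 and 1.19 FPKM in responsive tumors, without overlap (log2 fold change -0.89 ± 0.25, unadjusted p 0.0117). The proliferation marker Pcna was at 125, 88.3 and 115 FPKM in PBS and 61.2, 85.9 and 84.7 FPKM in responsive tumors and did not pass (unadjusted p 0.0665). The oncofetal and progenitor genes had 3 of 19 loci lower and 1 higher (median -0.65), counts not far from the shares of all loci. Igf2bp3, an oncofetal RNA-binding protein, was at 3.45, 2.33 and 2.9 FPKM in PBS and 0.651, 1.55 and 1.4 FPKM in responsive tumors (log2 fold change -0.84 ± 0.25, unadjusted p 0.0142). The other lower loci were Golm1, a Golgi protein and serum marker of hepatocellular carcinoma, and Igf2bp2, a relative of Igf2bp3. Golm1 had a log2 fold change of -0.81 ± 0.28 (unadjusted p 0.0253, and up to 0.0684 without PBS tumors 1 or 3 or responsive tumor 1). Igf2bp2 had one of -0.65 ± 0.25 (unadjusted p 0.0438, and up to 0.113 without PBS tumors 1, 2 or 3 or responsive tumors 1 or 3). The higher locus was Prom1, or CD133 (log2 fold change 1.13 ± 0.44, unadjusted p 0.0444). For Prom1 this p was up to 0.136 without PBS tumors 1 or 3 or responsive tumors 1 or 3. Alpha-fetoprotein (Afp), the serum marker of hepatocellular carcinoma, was at 20.4, 25.3 and 18.2 FPKM in PBS and 0.646, 53.9 and 4.4 FPKM in responsive tumors. Responsive tumor 2 had the highest Afp of the 6 and responsive tumor 1 the lowest, so the groups overlapped (unadjusted p 0.271). The joined Krt15 and Krt19 locus, with the biliary and progenitor keratin 19, was at 212, 59 and 136 FPKM in PBS and 5.82, 173 and 51.6 FPKM in responsive tumors, with responsive tumor 2 inside the PBS range and responsive tumor 1 the lowest (unadjusted p 0.233).

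The metabolic and stress lists placed under tumor cell function had few calls. Over all loci 9.12% were higher and 10% lower. How much of the RNA of these genes came from tumor cells was not tested. Glycolysis had 0 of 19 loci called (median -0.40) and cytosolic ribosomal proteins 0 of 31 (median -0.36), although all but 2 of the ribosomal loci had fold changes below 0. Hypoxia response had 1 of 21 loci lower, and oxidative phosphorylation had 2 of 28 higher. These were Cyc1 of complex III (log2 fold change 0.54 ± 0.21, unadjusted p 0.0418) and Ndufa1 of complex I (log2 fold change 0.62 ± 0.24, unadjusted p 0.0421). For Cyc1 this p was up to 0.133 without PBS tumors 1, 2 or 3 or responsive tumors 1 or 3. For Ndufa1 this p was up to 0.121 without PBS tumors 1 or 3 or responsive tumors 1 or 2. In the stress and unfolded protein response list 4 of 19 loci were higher and 1 was lower (median 0.29). Herpud1, which serves degradation at the endoplasmic reticulum, was at 21.4, 45.8 and 35.3 FPKM in PBS and 99.3, 55.7 and 70.6 FPKM in responsive tumors (log2 fold change 1.14 ± 0.35, unadjusted p 0.0165), and Sdf2l1, a chaperone cofactor there, had a log2 fold change of 1.23 ± 0.30 (unadjusted p 0.0065). The chaperone Hspa5 (log2 fold change 0.62 ± 0.25, unadjusted p 0.0445) and its partner Dnajb9 (log2 fold change 0.82 ± 0.27, unadjusted p 0.0227) were the other higher loci. For Hspa5 this p was up to 0.127 without PBS tumors 1 or 3 or responsive tumors 1, 2 or 3. For Dnajb9 this p was up to 0.0623 without PBS tumor 1 or responsive tumors 1 or 3. The lower one was Asns, asparagine synthetase, at 28.3, 21.5 and 24.3 FPKM in PBS and 5.24, 16.6 and 14 FPKM in responsive tumors (log2 fold change -1.12 ± 0.41, unadjusted p 0.0349). For Asns this p was up to 0.086 without PBS tumors 1, 2 or 3. Of the NRF2 targets 2 of 22 were higher and 0 lower, with Gclc, the rate-limiting enzyme of glutathione synthesis, at 9.36, 18.6 and 19.2 FPKM in PBS and 41, 28.6 and 46.7 FPKM in responsive tumors (log2 fold change 1.29 ± 0.33, unadjusted p 0.00828). Osgin1, a stress-induced growth inhibitor, was the other one, with a log2 fold change of 1.93 ± 0.65 (unadjusted p 0.0245). For Osgin1 this p was 0.0752 without responsive tumor 1 and 0.0669 without responsive tumor 3. The list of p53 targets and cell death had 2 of 22 loci lower, among them Zmat3 (log2 fold change -0.83 ± 0.32, unadjusted p 0.0422). For Zmat3 this p was up to 0.111 without PBS tumors 1, 2 or 3 or responsive tumors 1 or 3. The Wnt targets had 1 of 16 loci higher, the Glul locus, and 14 fold changes below 0 (median -0.80).

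The 10 largest decreases among loci above 0 in every tumor were led by Nrcam. Nrcam, a neuronal cell adhesion molecule, was at 114, 51.9 and 59.8 FPKM in PBS and 0.184, 22.8 and 16.7 FPKM in responsive tumors (log2 fold change -3.18 ± 1.17, unadjusted p 0.0349). For Nrcam this p was up to 0.087 without PBS tumors 1, 2 or 3. The gene was nearly absent from responsive tumor 1 and from nonresponsive tumor 1, at 0.754, 32.5 and 82.5 FPKM in the nonresponsive tumors, and did not pass between the antibody-treated groups (unadjusted p 0.551). Of the others, 5 were predicted genes without a given function (Gm38194, Gm42566, Gm47652, Gm42860 and the joined Gm42427 and Gm42428), and Ccl24, the Tigit locus and the Abcb9 locus were also among them.

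Few T cell genes separated the groups. The 7 lists of T and NK cells held 117 loci, of which 4 were higher and 3 lower, shares of 3.42% and 2.56% that lie below those of all loci, with a median of 0.29. The higher count was 28 without PBS tumor 2, which had the most T cell transcripts of the PBS group, and 13 without responsive tumor 2. In these fits 1256 and 1301 of all 12715 loci were higher. The T cell receptor complex had 21 of 23 fold changes above 0 and a median of 0.62, but 1 locus passed. That locus was Lat, the adaptor of the receptor, joined with Mir7058, at 6.19, 20.3 and 12.2 FPKM in PBS and 25.3, 24.4 and 25.7 FPKM in responsive tumors (log2 fold change 1.05 ± 0.39, unadjusted p 0.037). For Lat this p was up to 0.087 without PBS tumor 3 or responsive tumors 1, 2 or 3. Cd8a, the coreceptor of cytotoxic T cells, joined with Gm44174, was at 5.81, 24.4 and 5.96 FPKM in PBS and 2.46, 22.8 and 19.1 FPKM in responsive tumors. Responsive tumor 1 had the lowest Cd8a and PBS tumor 2 the highest, and the log2 fold change was 0.15 ± 0.90 (unadjusted p 0.87). Cd4 was at 2.22, 13.6 and 6.04 FPKM in PBS and 15.3, 7.79 and 16.8 FPKM in responsive tumors (log2 fold change 0.98 ± 0.59, unadjusted p 0.149). Pdcd1, the gene of PD-1 itself, was at 1.44, 8.65 and 3.18 FPKM in PBS and 8.18, 7.39 and 7.23 FPKM in responsive tumors. The responsive tumors were close to each other and the PBS tumors lay on both sides of them (log2 fold change 0.89 ± 0.49, unadjusted p 0.12), while against the nonresponsive tumors, at 4.97, 4.95 and 3.75 FPKM, Pdcd1 was higher (difference 0.64, unadjusted p 0.0149).

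Effector genes overlapped between the groups. Ifng, interferon-gamma, joined with Gm49751, was at 1.44, 7.56 and 3.39 FPKM in PBS and 1.8, 6.1 and 6.31 FPKM in responsive tumors (log2 fold change 0.22 ± 0.58, unadjusted p 0.72). Gzmb, the granzyme of cytotoxic granules, was at 14.1, 44.8 and 26.2 FPKM in PBS and 6.65, 40.7 and 32.3 FPKM in responsive tumors (log2 fold change -0.27 ± 0.74, unadjusted p 0.726). The lists of cytotoxic effectors, stem-like and memory T cells, and regulatory T cells and costimulation had 0 of 19, 0 of 19 and 0 of 15 loci called. Tcf7, which encodes TCF-1, a factor of stem-like T cells and of Wnt signaling, was at 158, 80.7 and 135 FPKM in PBS and 14.3, 109.7 and 43.6 FPKM in responsive tumors (log2 fold change -1.52 ± 0.73, unadjusted p 0.0823). It was low in responsive tumor 1 and in nonresponsive tumor 1 (7.4, 80.5 and 126 FPKM in the nonresponsive tumors), the tumors with the highest hepatocyte share of their groups. Foxp3, the factor of regulatory T cells, joined with Flicr, was listed at 0, 2.54 and 0 FPKM in PBS and 1.46, 0 and 1.98 FPKM in responsive tumors.

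Of the inhibitory receptors 1 of 19 loci was higher and 1 lower. Tox, a factor of exhausted T cells, was at 0.222, 1.27 and 0.430 FPKM in PBS and 1.71, 1.31 and 2.32 FPKM in responsive tumors (log2 fold change 0.80 ± 0.30, unadjusted p 0.039). For Tox this p was up to 0.126 without PBS tumors 1 or 3 or responsive tumors 1 or 3. The lower one was the locus of Tigit with Gm49734 and Gm49735, at 155, 78.4 and 145 FPKM in PBS and 9.21, 70.2 and 31.3 FPKM in responsive tumors (log2 fold change -2.09 ± 0.72, unadjusted p 0.0279). For Tigit this p was up to 0.0764 without PBS tumors 1 or 3 or responsive tumor 3. The share of Tigit itself, a receptor of T and NK cells, in this joined value was not tested. NK cell receptors had 1 of 12 loci lower, Itga2, an integrin that epithelial cells also use, at 15.8, 9.56 and 10.1 FPKM in PBS and 1.57, 6.94 and 4.58 FPKM in responsive tumors (log2 fold change -1.37 ± 0.45, unadjusted p 0.0228). For Itga2 this p was 0.0653 without PBS tumor 1. These 2 loci and Ccl17, described with the chemokines, were the 3 lower ones of the T and NK cell lists.

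Chemokines that attract lymphocytes had 2 of 16 loci higher and 1 lower (median 0.49), counts near the 9.12% and 10% of all loci. Ccl20, the ligand of CCR6, was at 0.402, 2.69 and 1.27 FPKM in PBS and 7.37, 4.09 and 6.48 FPKM in responsive tumors (log2 fold change 1.59 ± 0.40, unadjusted p 0.00767), and above the nonresponsive tumors as well, at 2.52, 0.605 and 1.41 FPKM (difference 1.52, unadjusted p 0.00518). Ccl21a, which guides naive T cells and dendritic cells through CCR7, was at 48.3, 68.3 and 38.9 FPKM in PBS and 136, 75.2 and 122 FPKM in responsive tumors (log2 fold change 1.08 ± 0.31, unadjusted p 0.014). Neither gene overlapped between the groups. The interferon-induced Cxcl9 was at 139.7, 225 and 158 FPKM in PBS and 109.9, 155 and 335 FPKM in responsive tumors (log2 fold change 0.07 ± 0.45), and Cxcl10, joined with Scarb2, was at 177, 327 and 303 FPKM in PBS and 136, 332 and 287 FPKM in responsive tumors (log2 fold change -0.14 ± 0.42). Both overlapped, with unadjusted p of 0.882 and 0.747. The lower chemokine was Ccl17, a ligand of CCR4 named here after its values were seen, at 34.8, 10.9 and 25.8 FPKM in PBS and 4.34, 11.4 and 6.88 FPKM in responsive tumors (log2 fold change -1.48 ± 0.50, unadjusted p 0.0256). For Ccl17 this p was up to 0.0767 without PBS tumors 1 or 3 or responsive tumors 1 or 3.

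Of the antigen presentation and interferon genes 6 of 89 loci were higher (6.74%, against 9.12% of all loci) and 1 was lower (1.12%, against 10% of all loci), with a median of 0.01. Interferon-gamma induced genes had 0 of 16 loci called (median -0.14), MHC class I presentation 0 of 19 (median 0.08) and MHC class II presentation 1 of 15 higher (median 0.50). The called locus was H2-Ob, a chain of the B cell modulator H2-O (log2 fold change 1.87 ± 0.67, unadjusted p 0.0315). For H2-Ob this p was up to 0.0964 without PBS tumors 1 or 3 or responsive tumors 1 or 3. The interferon-gamma median was 0.25 without responsive tumor 1, and the MHC class I median was -0.03 without PBS tumor 1, -0.14 without responsive tumor 2 and -0.08 after rescaling to the same sum. The type I interferon-stimulated genes had 22 of 26 fold changes below 0 (median -0.45), with 0 lower and 1 higher locus, that of Stat2 joined with Apof, a hepatocyte apolipoprotein (log2 fold change 1.85 ± 0.56, unadjusted p 0.0161). For Stat2 this p was 0.0511 without responsive tumor 1. Cd274, the gene of PD-L1, joined with Ric1, was at 34.5, 100.4 and 105 FPKM in PBS and 70.0, 63.1 and 97.9 FPKM in responsive tumors, with overlap (log2 fold change 0.08 ± 0.47, unadjusted p 0.867). Among 16 inhibitory ligands 4 loci were higher and 1 was lower (median 0.13, and -0.28 without PBS tumor 1). The higher ones were Nectin2, which is described among the loci listed at 0, the joined Ceacam1 and Ceacam2 (log2 fold change 1.47 ± 0.45, unadjusted p 0.0167, and 0.0522 without responsive tumor 1 and 0.0503 without responsive tumor 3), the Fgl1 locus and Tdo2. Fgl1, a secreted hepatocyte protein and ligand of LAG-3, joined with Mtus1, was at 33, 102 and 191 FPKM in PBS and 406, 228 and 332 FPKM in responsive tumors (log2 fold change 1.84 ± 0.65, unadjusted p 0.0295). For Fgl1 this p was up to 0.0828 without PBS tumor 2 or responsive tumors 1 or 3. Tdo2, an enzyme of tryptophan breakdown, had a log2 fold change of 2.92 ± 0.92 (unadjusted p 0.0196). For Tdo2 this p was 0.0603 without responsive tumor 1. The lower one was Cd276, or B7-H3, at 33.7, 26.2 and 21.6 FPKM in PBS and 7.69, 19.1 and 14.7 FPKM in responsive tumors (log2 fold change -0.99 ± 0.35, unadjusted p 0.0305). For Cd276 this p was up to 0.0849 without PBS tumors 1 or 2 or responsive tumor 3.

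**Figure D4:**
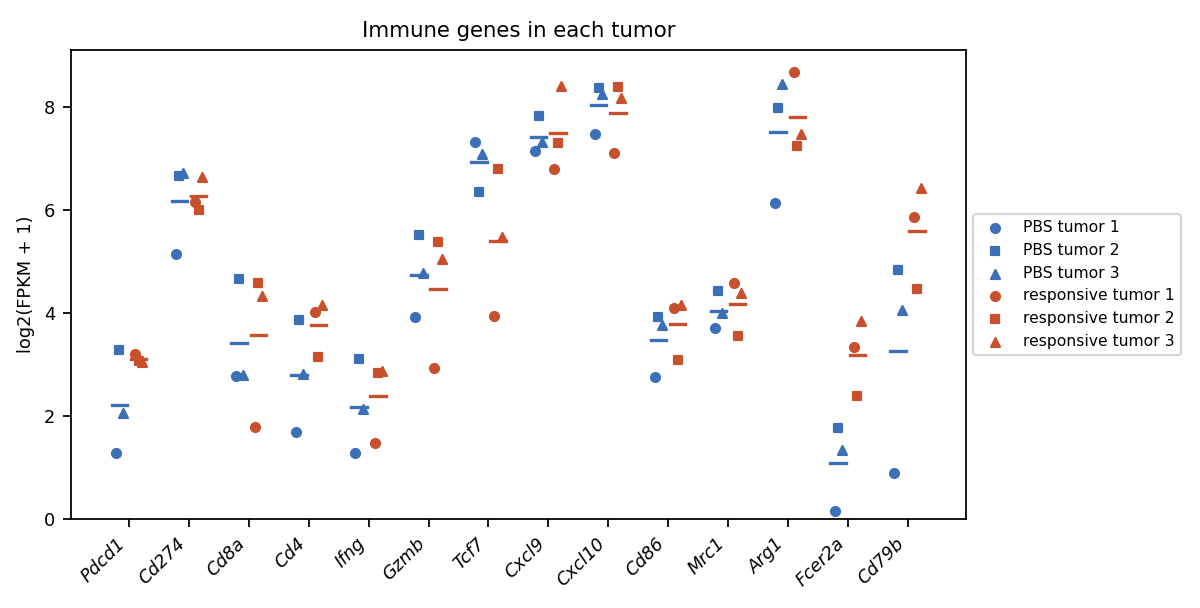
Log2(FPKM + 1) of 14 immune genes in each PBS tumor (blue) and responsive tumor (red), with tumor 1 as circles, tumor 2 as squares, tumor 3 as triangles and bars at the group means. For Fcer2a the 3 responsive tumors lie above the 3 PBS tumors, and the groups overlap for the other 13 genes drawn.

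B cell genes had the largest median among the immune groups. Their 32 loci included 7 higher (21.9%, against 9.12% of all loci) and 0 lower, with a median of 1.47. The count was 3 without PBS tumor 1, with a median of 0.67, 2 without PBS tumor 3, 1 without responsive tumor 1, 1 without responsive tumor 3, 13 without PBS tumor 2 and 15 without responsive tumor 2, and it was 2 with an ordinary Student test and 2 with a replicate block. All 22 loci of B cell identity had fold changes above 0. Fcer2a (CD23), the low affinity IgE receptor of mature B cells, was at 0.121, 2.41 and 1.54 FPKM in PBS and 9.09, 4.23 and 13.4 FPKM in responsive tumors. The groups did not overlap (log2 fold change 2.1 ± 0.55, unadjusted p 0.00865), and the gene stood above the nonresponsive tumors, at 2.17, 1.3 and 1.35 FPKM (difference 1.83, unadjusted p 0.00355). Fcmr, the receptor for IgM, was at 0.0377, 5.09 and 2.54 FPKM in PBS and 9.94, 6.41 and 15.2 FPKM in responsive tumors (log2 fold change 1.96 ± 0.69, unadjusted p 0.0293). For Fcmr this p was up to 0.0902 without PBS tumor 3 or responsive tumors 1 or 3. Bank1, a B cell scaffold, was at 0.420, 3.32 and 2.38 FPKM in PBS and 7.99, 3.55 and 8.76 FPKM in responsive tumors (log2 fold change 1.42 ± 0.51, unadjusted p 0.032). For Bank1 this p was up to 0.0979 without PBS tumor 1 or responsive tumors 1 or 3. Also higher were Cd37, a tetraspanin (log2 fold change 0.63 ± 0.21, unadjusted p 0.0243), and, named after their values were seen, the inhibitory receptor Cd22 and the factor Spib. Cd22 had a log2 fold change of 1.33 ± 0.51 (unadjusted p 0.0406) and Spib one of 1.82 ± 0.68 (unadjusted p 0.0373). For Cd37 this p was up to 0.0842 without PBS tumors 1 or 3 or responsive tumors 1 or 3. For Cd22 this p was up to 0.122 without PBS tumors 1 or 3 or responsive tumors 1 or 3. For Spib this p was up to 0.113 without PBS tumors 1 or 3 or responsive tumors 1 or 3. Cd79b, a chain of the B cell receptor, was at 0.869, 27.7 and 15.5 FPKM in PBS and 57.3, 21.2 and 85.3 FPKM in responsive tumors and missed the threshold (unadjusted p 0.0794). Against the nonresponsive tumors 12 of 31 B cell loci were higher and 0 lower, beside 4.36% of all loci.

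Immunoglobulin transcripts spanned a wide range within each group. The kappa constant gene Igkc, in a locus joined with J and V segments, was at 133, 23110.0 and 11026 FPKM in PBS and 30323, 4834 and 39249 FPKM in responsive tumors. PBS tumor 1 stood far below all others and responsive tumor 2 below PBS tumors 2 and 3, so the groups overlapped (log2 fold change 2.47 ± 2.08, unadjusted p 0.281). The joined V segments Igkv4-79 and Igkv4-91 were among the 10 largest increases, at 2.18, 86.6 and 146 FPKM in PBS and 435, 381 and 716 FPKM in responsive tumors (log2 fold change 3.84 ± 1.44, unadjusted p 0.0377). For Igkv4-79 this p was up to 0.0973 without responsive tumors 1, 2 or 3. Of 109 V gene loci compared, 7 were higher (6.42%) and 0 lower, with a median of 1.49, and since V segments share sequence their reads can be split among copies. Within the list of plasma cells and immunoglobulin constant genes 0 of 10 loci were called.

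Macrophage and other myeloid genes had few calls. Over 132 loci 4 were higher and 6 lower. These shares of 3.03% and 4.55% lie below the 9.12% and 10% of all loci. The median was 0.33, and it was 0.0050 without PBS tumor 1. The higher count was 14 without PBS tumor 2, 10 without PBS tumor 3 and 12 without responsive tumor 2. In these 3 fits 1256, 995 and 1301 of all 12715 loci were higher. The general macrophage genes had 18 of 19 fold changes above 0 and 1 call, C1qa, a chain of the complement starter C1q, at 228, 375 and 294 FPKM in PBS and 523, 413 and 434 FPKM in responsive tumors (log2 fold change 0.63 ± 0.25, unadjusted p 0.0454). For C1qa this p was up to 0.134 without PBS tumors 1 or 3 or responsive tumors 1, 2 or 3. Gas6, a bridge between dying cells and the receptors that engulf them, was the 1 call of 23 phagocytosis loci, at 15.8, 37.1 and 28.3 FPKM in PBS and 98, 46.9 and 76.8 FPKM in responsive tumors (log2 fold change 1.43 ± 0.40, unadjusted p 0.0118). The nonresponsive tumors were at 104, 105 and 36.9 FPKM (difference -0.07, unadjusted p 0.897). The M1-like genes had 0 of 18 loci higher and 1 lower, Il23a, a subunit of interleukin 23 (log2 fold change -0.69 ± 0.25, unadjusted p 0.0348). For Il23a this p was up to 0.0933 without PBS tumors 2 or 3 or responsive tumors 1, 2 or 3. The M2-like and lipid-associated genes had 1 of 22 higher and 4 lower. The M1-like median of 0.15 was -0.25 without PBS tumor 1 and -0.06 without responsive tumor 3, and the M2-like median of 0.28 was -0.05 without responsive tumor 1. The higher M2-like locus, also on the Kupffer list, was the scavenger receptor Cd163, named after its values were seen (log2 fold change 0.90 ± 0.35, unadjusted p 0.04). For Cd163 this p was up to 0.118 without PBS tumors 1 or 2 or responsive tumors 1 or 3.

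The lower M2-like loci were Ccl24, Ccl17, Cd9 and the joined Clec10a and Mgl2. Ccl24, an eotaxin made by alternatively activated macrophages, was at 80.2, 47 and 98.9 FPKM in PBS and 1.59, 38.2 and 16.7 FPKM in responsive tumors (log2 fold change -2.58 ± 0.99, unadjusted p 0.0409). For Ccl24 this p was up to 0.106 without PBS tumors 1, 2 or 3 or responsive tumor 3. The galactose-type lectins Clec10a and Mgl2 were at 32.7, 28.6 and 28.8 FPKM in PBS and 14.8, 21.7 and 21.4 FPKM in responsive tumors, without overlap (log2 fold change -0.63 ± 0.19, unadjusted p 0.018). For Mgl2 this p was 0.0549 without PBS tumor 1. Cd9, a tetraspanin of many cell types, was at 222, 199 and 226 FPKM in PBS and 145, 179 and 148 FPKM in responsive tumors (log2 fold change -0.46 ± 0.17, unadjusted p 0.0388). For Cd9 this p was up to 0.122 without PBS tumors 1, 2 or 3 or responsive tumors 1 or 3. Mrc1 (CD206), the mannose receptor, overlapped between the groups, at 12.1, 20.5 and 14.9 FPKM in PBS and 23, 10.7 and 19.9 FPKM in responsive tumors (log2 fold change 0.13 ± 0.33, unadjusted p 0.705). So did Nos2, the inducible nitric oxide synthase, at 5.59, 55 and 55.4 FPKM in PBS and 28.4, 25.3 and 48.1 FPKM in responsive tumors (unadjusted p 0.753), Tnf, at 2.63, 29.1 and 17.9 FPKM and 34.3, 8.0 and 24.3 FPKM (unadjusted p 0.499), and Cd86, joined with Gm49662, at 5.73, 14.2 and 12.7 FPKM and 16.2, 7.53 and 16.8 FPKM (unadjusted p 0.516). Cd80, the other costimulatory ligand, was listed at 0, 9.97 and 10.9 FPKM in PBS and 19.3, 5.33 and 10.9 FPKM in responsive tumors. Il10 was at 0.579, 1.72 and 0.630 FPKM in PBS and 4.64, 0.367 and 1.55 FPKM in responsive tumors (unadjusted p 0.404).

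Neutrophil genes and monocyte chemokines had 0 of 21 and 0 of 18 loci called. Of 21 dendritic cell loci 1 was higher and 1 lower. The higher one held Clec9a, the receptor of cross-presenting dendritic cells for dead cells, together with Clec1b, which is also made by liver endothelium and platelets, and Gm43914, at 1.93, 6.28 and 0.432 FPKM in PBS and 14, 11.2 and 12.9 FPKM in responsive tumors (log2 fold change 2.13 ± 0.58, unadjusted p 0.0103). Its responsive tumors were close together and above all PBS tumors. The lower one was the adhesion molecule Cadm1, joined with Gm47198 and named after its values were seen (log2 fold change -1.46 ± 0.55, unadjusted p 0.039). For Cadm1 this p was up to 0.105 without PBS tumors 1 or 3 or responsive tumors 1 or 3.

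A few genes of the other cells of the normal liver were higher, where 9.12% of all loci were. The Kupffer cell list, the resident macrophages of the liver, had 3 of 12 loci higher and 0 lower, with all 12 fold changes above 0 and a median of 1.47. Clec4f, a lectin restricted to Kupffer cells, was at 1.14, 13.4 and 37.2 FPKM in PBS and 61.9, 33.6 and 72.5 FPKM in responsive tumors, and Cd5l was at 1.76, 24.4 and 45.2 FPKM in PBS and 113, 49.1 and 85.8 FPKM in responsive tumors. Neither passed (unadjusted p 0.0642 and 0.0624). The higher loci were Cd163, the complement protein C6, which hepatocytes also make (log2 fold change 2.2 ± 0.82, unadjusted p 0.0358), and the Nr1h3 locus joined with Madd and Gm13783, which was listed at 19.3, 0 and 0 FPKM in PBS and 92.7, 38.6 and 43.2 FPKM in responsive tumors. The values of 0 at the Nr1h3 locus may be failed estimates. For C6 this p was up to 0.105 without PBS tumors 1 or 2 or responsive tumors 1 or 3. The liver sinusoidal endothelium list had 3 of 14 loci higher and 0 lower (median 0.66). Clec4g, a lectin of these cells, was at 0.877, 7.81 and 8.09 FPKM in PBS and 35, 14.3 and 18.2 FPKM in responsive tumors (log2 fold change 2.05 ± 0.70, unadjusted p 0.0263). For Clec4g this p was 0.0804 without responsive tumor 1 and 0.0542 without responsive tumor 3. Oit3 had a log2 fold change of 1.40 ± 0.48 (unadjusted p 0.0266, and up to 0.0786 without PBS tumor 1 or responsive tumors 1 or 3). Gpr182 was listed at 0, 2.95 and 2.89 FPKM in PBS and 7.25, 4.44 and 6.45 FPKM in responsive tumors (unadjusted p 0.0426). For Gpr182 this p was up to 0.108 without responsive tumors 1, 2 or 3. Lrat, the enzyme that stores retinol in hepatic stellate cells, was at 0.0884, 0.828 and 1.48 FPKM in PBS and 6.42, 2.47 and 5.22 FPKM in responsive tumors (log2 fold change 1.67 ± 0.42, unadjusted p 0.00744). The list of fibroblasts, stellate cells and pericytes did not shift as a whole, with 2 of 24 loci higher and 1 lower. Its median was 0.05, with 13 fold changes above 0 and 11 below. General vascular endothelium had 1 of 24 loci higher, the tight junction protein Cldn5 (log2 fold change 0.39 ± 0.15, unadjusted p 0.0453). For Cldn5 this p was up to 0.132 without PBS tumors 1 or 3 or responsive tumors 1, 2 or 3. The 1 lower locus was the phosphatase Ptprb (log2 fold change -1.33 ± 0.43, unadjusted p 0.0225). For Ptprb this p was up to 0.0656 without PBS tumors 1 or 3 or responsive tumor 3. Pecam1, or CD31, was at 23.8, 43.5 and 34.6 FPKM in PBS and 46.6, 37 and 43.9 FPKM in responsive tumors (unadjusted p 0.216).

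Matrix remodeling was the stromal list with the highest share of lower loci. Of 22 loci 7 were lower and 0 higher (median -0.24), where 10% of all loci were lower and 9.12% higher. The count of lower loci was 7 without PBS tumor 1, 6 without responsive tumor 1, 3 without PBS tumor 2 and 4 without PBS tumor 3. Mmp12, the elastase of macrophages, was at 164, 281 and 296 FPKM in PBS and 122, 76.3 and 102 FPKM in responsive tumors (log2 fold change -1.28 ± 0.31, unadjusted p 0.00607). Loxl2, which crosslinks collagen, joined with Gm21451 and Mir6950, was at 67.4, 73.7 and 66.8 FPKM in PBS and 37.8, 45.4 and 39.2 FPKM in responsive tumors (log2 fold change -0.75 ± 0.15, unadjusted p 0.00229). The values of each group were tight and did not overlap, and Loxl2 was also below the nonresponsive tumors, at 54.8, 103 and 69.7 FPKM (difference -0.83, unadjusted p 0.0202). Adamts4, which cleaves aggrecan and versican, was at 25, 26.2 and 16.8 FPKM in PBS and 8.87, 10.9 and 14.6 FPKM in responsive tumors (log2 fold change -0.92 ± 0.26, unadjusted p 0.0116). Plaur, the receptor of urokinase, was at 124, 133 and 154 FPKM in PBS and 35.8, 83.3 and 83.9 FPKM in responsive tumors (log2 fold change -1.10 ± 0.36, unadjusted p 0.0229). For Plaur this p was 0.0541 without PBS tumor 2 and 0.0696 without PBS tumor 3. Timp1, an inhibitor of matrix metalloproteases, was at 168, 258 and 199 FPKM in PBS and 123, 143 and 106 FPKM in responsive tumors (log2 fold change -0.74 ± 0.23, unadjusted p 0.0182). For Timp1 this p was 0.0533 without PBS tumor 2 and 0.0683 without responsive tumor 3. The others were Adamts1 (log2 fold change -0.49 ± 0.15, unadjusted p 0.0163) and Timp3, named after its values were seen (log2 fold change -0.47 ± 0.18, unadjusted p 0.0415). For Adamts1 this p was 0.0512 without PBS tumor 2 and 0.0583 without PBS tumor 3. For Timp3 this p was up to 0.114 without PBS tumors 1, 2 or 3 or responsive tumors 1 or 3.

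Of 20 collagen chains 1 was higher and 2 were lower. The higher one was Col18a1 of basement membranes (log2 fold change 0.49 ± 0.17, unadjusted p 0.0281). For Col18a1 this p was up to 0.0895 without PBS tumors 1 or 3 or responsive tumors 1 or 3. The median of 0.05 was -0.21 without PBS tumor 1, -0.08 without PBS tumor 3, -0.13 without responsive tumor 1 and -0.10 after rescaling. Col12a1, a collagen that decorates fibrils in stressed tissue, was at 31.5, 23.4 and 20.4 FPKM in PBS and 12.6, 13.1 and 9.93 FPKM in responsive tumors (log2 fold change -1.01 ± 0.21, unadjusted p 0.00335), and the nonresponsive tumors, at 28.3, 48.9 and 24.9 FPKM, were above the responsive ones as well (difference -1.39, unadjusted p 0.00287). Col8a1, joined with Cmss1, was at 55, 39.4 and 39.1 FPKM in PBS and 21.2, 31.1 and 24.9 FPKM in responsive tumors (log2 fold change -0.76 ± 0.22). Col1a1, the main fibrillar chain, was at 510.1, 1138 and 618 FPKM in PBS and 540.1, 568 and 644 FPKM in responsive tumors, with overlap (unadjusted p 0.437). In the TGF-beta pathway 2 of 21 loci were higher and 2 lower (median -0.22). The joined activin chains Inhbc and Inhbe, which hepatocytes secrete, were at 0.0593, 5.0 and 5.67 FPKM in PBS and 20.7, 16.9 and 18.6 FPKM in responsive tumors (log2 fold change 2.50 ± 0.72, unadjusted p 0.0134). Smad6, an inhibitor of the pathway, was the other higher locus (log2 fold change 1.01 ± 0.34, unadjusted p 0.0252). For Smad6 this p was 0.0762 without responsive tumor 1 and 0.0513 without responsive tumor 3. Inhba, an activin chain named after its values were seen, was one of the lower loci (log2 fold change -1.10 ± 0.41, unadjusted p 0.0367). For Inhba this p was up to 0.108 without PBS tumors 2 or 3 or responsive tumors 1 or 2. Over the 7 stromal and vascular lists together 12 of 133 loci were higher and 13 lower, shares of 9.02% and 9.77% that lie close to those of all loci.

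**Figure D5:**
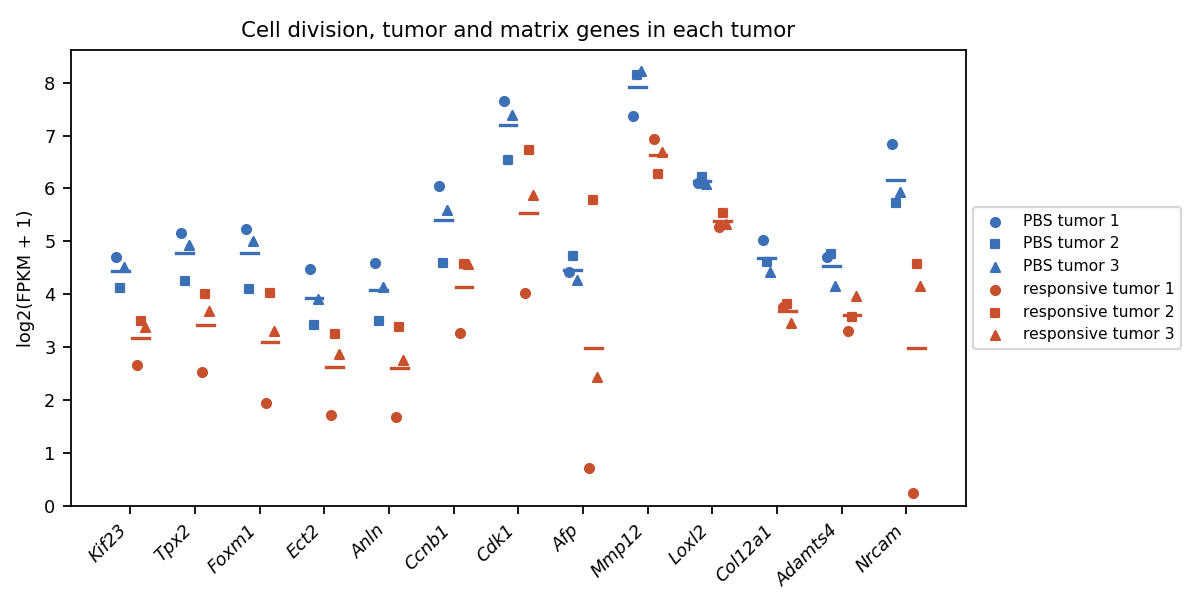
Log2(FPKM + 1) of 13 cell division, tumor and matrix genes in each PBS tumor (blue) and responsive tumor (red), with tumor 1 as circles, tumor 2 as squares, tumor 3 as triangles and bars at the group means. Mmp12, Loxl2, Col12a1 and Adamts4 are lower in all responsive tumors with little spread, whereas the mitosis genes, Afp and Nrcam are lowest in responsive tumor 1, and Cdk1 and Afp of responsive tumor 2 lie within or above the PBS values.

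Tissues that could be carried along at dissection were checked with their defining markers in the 6 tumors. The pancreatic genes Cpa1 and Pnlip were at most 0.114 and 0 FPKM, and Prss2 was at most 0.354 FPKM. Of the 25 genes of the pancreatic list 3 loci were tested and 1 was higher, that of the amylases Amy1, Amy2a1 to Amy2a5 and Amy2b joined with Rnpc3. This locus was at 6.77, 11.1 and 17.1 FPKM in PBS and 49.1, 24 and 36.8 FPKM in responsive tumors, without overlap (log2 fold change 1.60 ± 0.39, unadjusted p 0.00673). The liver also makes amylase, and how much of the joined value came from each gene was not tested. Fat markers Adipoq and Plin1 were at most 0.548 and 0.277 FPKM. The skeletal muscle gene Mylpf was at 42.7, 3.76 and 4.71 FPKM in PBS and 2.26, 0 and 2.91 FPKM in responsive tumors, highest in PBS tumor 1. So was Ckm, at 12.5, 0.528 and 2.33 FPKM in PBS and 0.05, 0.395 and 0.532 FPKM in responsive tumors. Of 8 skeletal muscle loci tested 0 were called. The part of muscle tissue in the values of PBS tumor 1 was not tested. Hemoglobin was present in all tumors, with the joined Hba-a1 and Hba-a2 at 50.8, 33.1 and 117 FPKM in PBS and 236, 119 and 203 FPKM in responsive tumors (log2 fold change 1.60 ± 0.51, unadjusted p 0.0206). For Hba-a1 this p was up to 0.0634 without PBS tumors 1 or 2 or responsive tumors 1 or 3. The joined Hbb-bs and Hbb-bt, at 75.1, 38.8 and 169 FPKM in PBS and 249, 126 and 236 FPKM in responsive tumors, overlapped (unadjusted p 0.0657). Tfrc, on the same list, had a log2 fold change of -0.60 ± 0.25 (unadjusted p 0.0567). Of the 5 loci of the red blood cell list 2 were higher and 0 lower. Alas2, the heme synthesis enzyme of red cell precursors, was listed at 0, 4.25 and 4.51 FPKM in PBS and 18, 9.57 and 12 FPKM in responsive tumors. The part of blood in the other results was not tested. Car3, a carbonic anhydrase of fat, muscle and male liver, was at 11, 44.4 and 40.6 FPKM in PBS and 318, 154 and 244 FPKM in responsive tumors (log2 fold change 3.02 ± 0.58, unadjusted p 0.00204), and higher than in the nonresponsive tumors (difference 1.96, unadjusted p 0.00207).

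The 19 loci past the adjusted threshold were 13 listed at 0 in the PBS tumors and 6 listed at 0 in the responsive tumors. Mrpl27, a protein of the mitochondrial ribosome that every cell uses, was listed at 0, 0 and 0 FPKM in the PBS tumors, at 48.6, 69.3 and 50.6 FPKM in the responsive tumors and at 44.6, 0 and 0 FPKM in the nonresponsive tumors (adjusted p 0.000487). Nectin2, an adhesion molecule that binds TIGIT and DNAM-1, was listed at 0, 0 and 0 FPKM in the PBS tumors, 31.6, 38.4 and 32.6 FPKM in the responsive tumors and 40.0, 28.6 and 39.9 FPKM in the nonresponsive tumors (adjusted p 0.000487). Ndst1, an enzyme of heparan sulfate, was listed at 0, 0 and 0 FPKM, 25.9, 21 and 23.4 FPKM and 27.4, 25.8 and 0 FPKM in the same 3 groups (adjusted p 0.000487). In the other direction Scaf4, an RNA processing factor, was listed at 8.61, 10.6 and 7.87 FPKM in the PBS tumors and 0, 0 and 0 FPKM in the responsive tumors (adjusted p 0.00359), and Lyrm4, which assembles iron-sulfur clusters, at 5.5, 5.43 and 6.75 FPKM and 0, 0 and 0 FPKM (adjusted p 0.00477). Since genes that every cell uses are among those at 0, a value of 0 may be a failed estimate, and no fold change is given. Among the loci compared 583 were listed at 0 in some of the 6 tumors and at 5 FPKM or more in another.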

How the data were processed

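Bulk RNA of 9 tumors (6 compared here, 3 for reference) was sequenced from TruSeq libraries. The authors deposited 1 table of FPKM values per tumor, made with Cufflinks, and the submitters' processing notes name Bowtie2 2.2.4, TopHat2 2.1.1 and mm8. Of 32189 entries with a GRCm38 gene 1059 lay at their GRCm38 place, so no coordinates of these tables are printed. A further table of the authors' own fold changes, p-values and q-values was not used.

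Entries were joined by gene name, and genes sharing an entry in any tumor formed 1 locus with summed FPKM. FPKM depends on all other transcripts of a tumor, including unnamed entries, which were left out, and holds no fragment counts, so no count model was applied. Loci with FPKM of at least 1 in 3 or more of the 6 tumors entered, as log2(FPKM + 1), a fit with limma 3.58.1 (trend, two-sided, R 4.3.3) and Benjamini-Hochberg adjustment, and fold changes are on that scale, which understates those of low genes. Errors after ± are standard errors. The code was tested on simulated data. Tables and plots used Python 3.11.15, pandas 2.3.3, numpy 2.4.6, scipy 1.17.1 and matplotlib 3.10.9. Each replicate is the tumor of 1 mouse. Relative depth was the commonest ratio of single-gene values of PBS tumor 1 to those of a tumor, among ratios near 1. Biotypes came from GENCODE (GRCm38).

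The 61 gene lists and the genes named were chosen with earlier results of these data known. Named are the 10 largest increases and decreases past the threshold without overlap, with a mean FPKM of at least 5 and no tumor at 0, up to 5 loci per direction listed at 0 in all tumors of 1 group, the 3 highest and up to 6 called members without overlap of each list, and genes of proteins the study measured in tumors or macrophages. Alternatives were other pseudocounts, filters and scalings, a fit of all 9 tumors, a Student test, a replicate block and leaving out each tumor. Promoters are from RefSeq (GRCm38.p6). Some genes are not reported here.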

Additional observations from a re-analysis of the deposited data

Results flagged for a closer look

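Tmed1, which encodes a cargo receptor of the early secretory pathway, drew attention because it differed between the antibody-treated groups. It was listed at 0, 0 and 0 FPKM in the PBS tumors, 19, 11.4 and 16.9 FPKM in the responsive tumors and 0, 0 and 0 FPKM in the nonresponsive tumors. The difference of responsive from nonresponsive tumors was 4.04 on the log2(FPKM + 1) scale (limma with Benjamini-Hochberg adjustment, adjusted p 0.00879), with all 3 responsive tumors above. Since the other groups are listed at 0, which may be a failed estimate, this difference is no fold change. Groups of 3 tumors were not searched for outliers.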

How the results depend on the processing

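The count of loci with an unadjusted p under 0.05 was 2434 as reported, 1097 to 4080 when each tumor was left out in turn (fewest without responsive tumor 1, most without responsive tumor 2), 989 with a replicate block and 1877 to 3202 under the other alternatives. The count with an adjusted p under 0.05 was 19 as reported, 5 to 37 when each tumor was left out, 7 in a fit of all 9 tumors, 5 with a filter at FPKM 5 and 0 with a replicate block, and 13 to 19 otherwise. The share of called loci that were higher was 47.6% as reported, 31.9% to 68.5% when each tumor was left out (lowest without responsive tumor 2, highest without PBS tumor 1), 57.7% in a fit of all 9 tumors, 27.9% after rescaling to the same sum, 44.1% with an ordinary Student test, 69.7% with a replicate block and 52.7% with upper-quartile scaling. The cause of these shifts was not tested. The labels do not say that replicate numbers pair the tumors. Across loci the deviations of same-numbered tumors correlated at -0.461, -0.494 and 0.147, and those of PBS tumor 1 and responsive tumor 2 at 0.581. With 3 tumors a group these correlations cannot decide whether a pairing exists. Of the 331 loci named by rule, 196 were called, 62 kept the call under all 14 alternatives, and all 196 kept their direction. With 3 tumors a group, FPKM values without fragment counts and values listed at 0 in single tumors, small differences of low genes could not be resolved.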

Other observations

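Gene classes outside the lists differed in how their calls were split. Of 285 processed pseudogenes, copies of spliced transcripts whose reads can come from the parent gene, 33 were lower (11.6%) and 2 higher (0.702%), with a median log2 fold change of -0.41. Of 187 long intergenic non-coding RNAs 28 were lower (15.0%) and 10 higher (5.35%), with a median of -0.35. Of 86 loci that the GENCODE annotation marks as needing experimental proof 22 were lower (25.6%) and 7 higher (8.14%), with a median of -0.56. Of 9439 protein-coding loci 952 were lower (10.1%) and 900 higher (9.54%), with a median of -0.11.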
